A study of Mus musculus with 1 sample.

Results

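The 48 genes described here are cell cycle genes, chosen by symbol from the 32285 genes of 1 single-cell RNA library and all found in it. They were divided by role into 18 genes of DNA replication, 20 genes of mitosis, 7 genes that control passage through G1 and 3 genes of chromatin and the CKS family. The library was made from the dissected adrenal medullae of untreated wild-type mice at postnatal day 15, and 10 adrenals of 5 mice, both sexes mixed, were pooled before 10000 viable cells were loaded. Because the animals were pooled into 1 library, there are no replicates and no test between samples was possible. A unique molecular identifier (UMI) marks a single captured transcript, sequenced from the 3′ side. For a level, the UMIs of a gene in all cells of a lineage were added and scaled to 1000000 UMIs of that lineage (CPM), and the ranges in brackets are exact 95% intervals that cover counting error only. UMIs of 1 dividing cell come together, so intervals on summed UMIs are narrower than the spread between cells would make them.

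A cell that enters the cycle passes from G1 through DNA replication to mitosis. Cyclins D and E with their kinases drive the exit from G1, the inhibitors p21 and p27 hold it back, and the E2F factors then switch on the genes of replication. The genes of mitosis are transcribed later, many of them through promoter elements called CHR and CCAAT boxes. At postnatal day 15 the adrenal gland is still growing, and its medulla holds catecholamine-secreting chromaffin cells and the glia-related sustentacular cells, with vessels, macrophages and remnants of the steroid-producing cortex.

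The promoters of these genes were read from the RefSeq table for build GRCm38.p6, which held 40 of the 48 members. *Ccne2*, *Ccna2*, *Tpx2*, *Aurkb*, *Ccnd1*, *Mcm4*, *Ccnd2* and *Gins2* had no entry. The 8 stretches printed here are the last 120 bases before the start of chosen members, 5′ to 3′ on the strand of the gene. They show how the motifs of replication and mitosis genes can lie, and not how common the motifs are. *Mcm6*, a subunit of the replicative helicase (chr1:128359706-128359825, minus strand), *Rrm1*, the large subunit of ribonucleotide reductase (chr7:102441575-102441694, plus strand), and *Hells*, a chromatin remodeller (chr19:38930870-38930989, plus strand), are replication genes. *Cdk1*, the mitotic kinase (chr10:69352913-69353032, minus strand), *Top2a*, topoisomerase II (chr11:99024190-99024309, minus strand), and *Ube2c*, a ubiquitin-conjugating enzyme of the anaphase-promoting complex (chr2:164769809-164769928, plus strand), are mitosis genes. *Cks2* (chr13:51645112-51645231, plus strand) encodes a small partner of cyclin-dependent kinases and *Ccne1* (chr7:38107491-38107610, minus strand) encodes cyclin E1. Capitals mark matches, on either strand, to the E2F, CHR or CCAAT letters given after the sequences.
Mcm6: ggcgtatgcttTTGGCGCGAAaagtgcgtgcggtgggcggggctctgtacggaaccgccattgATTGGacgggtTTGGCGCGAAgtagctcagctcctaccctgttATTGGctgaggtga
Rrm1: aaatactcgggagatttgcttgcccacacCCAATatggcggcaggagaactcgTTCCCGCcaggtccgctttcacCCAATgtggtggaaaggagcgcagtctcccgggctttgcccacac
Hells: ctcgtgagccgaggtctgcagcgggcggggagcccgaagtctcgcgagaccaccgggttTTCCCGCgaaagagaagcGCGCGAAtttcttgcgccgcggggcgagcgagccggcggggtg
Cdk1: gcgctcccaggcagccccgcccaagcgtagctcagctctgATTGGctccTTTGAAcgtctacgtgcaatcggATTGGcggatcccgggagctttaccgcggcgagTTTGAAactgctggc
Top2a: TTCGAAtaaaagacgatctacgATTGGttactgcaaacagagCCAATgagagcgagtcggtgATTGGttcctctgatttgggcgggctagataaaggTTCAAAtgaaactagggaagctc
Ube2c: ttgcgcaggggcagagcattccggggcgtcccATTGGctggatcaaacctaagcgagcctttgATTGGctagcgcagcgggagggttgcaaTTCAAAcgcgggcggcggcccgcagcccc
Cks2: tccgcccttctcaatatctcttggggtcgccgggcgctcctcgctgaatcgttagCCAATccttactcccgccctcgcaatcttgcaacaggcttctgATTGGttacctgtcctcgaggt
Ccne1: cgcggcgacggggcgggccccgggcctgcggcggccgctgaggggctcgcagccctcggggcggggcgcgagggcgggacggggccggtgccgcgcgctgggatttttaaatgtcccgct

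The letters were searched on both strands of the 250 bases before each start, and matches that overlap were each counted. They were TTGGCGC or TTGCCGC or TTCGCGC or TTCCCGC for E2F, TTTGAA or TTCGAA for the cell cycle homology region (CHR), and CCAAT. E2F letters were found in 9 of the 16 replication genes with a promoter (56.2%), in 3 of 17 mitosis genes (17.6%) and in 9.01% of the 27025 genes of the table. CHR letters were found in 3 of 16 replication genes (18.8%), in 8 of 17 mitosis genes (47.1%) and in 19.6% of all genes. CCAAT was found in 12 of 16, 15 of 17 and 37.5%, respectively. *Mcm6* had 4 E2F matches, which overlap in pairs in 2 places, and no CHR, whereas *Top2a* had 4 CHR and 6 CCAAT matches and no E2F, some of them upstream of the stretch printed. *Cdk1* held all 3 kinds, with its E2F matches upstream of the stretch printed, and *Ccne1* held none. Of the replication genes not printed, *Slbp*, *Pcna* and *Tyms* had no E2F match. Among mitosis genes not printed, *Cenpf*, *Birc5*, *Nusap1* and *Bub1* had no CHR match. With the 50 bases after the start added, CHR letters were found in 13 of the 17 mitosis genes and 21.7% of all genes. A match is a description of letters and not a binding site.

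**Figure D1:**
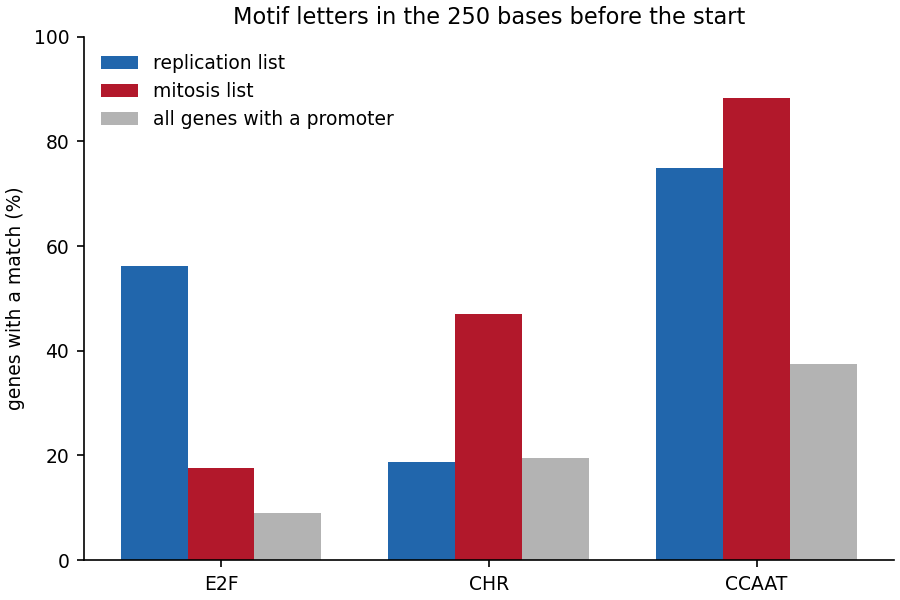
Share of genes (%, y axis) with at least 1 match to each kind of letters (x axis) in the 250 bases before the start, for the replication list (blue, 16 genes), the mitosis list (red, 17 genes) and all 27025 genes of the table (grey). E2F letters were in 56.2% of replication and 17.6% of mitosis genes, and CHR letters in 18.8% and 47.1%.

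The matrix held 11214 barcodes with 51421499 UMIs and a median of 3250 per barcode, and 10139 cells passed the filter. Of these, 8738 were placed in 5 lineages by markers that include no member. There were 2200 chromaffin-like, 3689 cortex-like, 2117 endothelial-like, 565 macrophage-like and 167 sustentacular-like cells, with median UMIs of 3152, 5290, 2004, 1625 and 1130. The markers of each lineage were at 4074 to 78660 CPM in it and the markers of the others at 1.78 to 1043 CPM. The highest of these foreign levels was that of chromaffin markers in sustentacular-like cells, in which the endothelial markers *Kdr*, *Cdh5* and *Plvap* had no UMI. The same markers named the clusters, and cells with high markers of another lineage were left out. These levels and absent UMIs therefore follow in part from the selection and are no test of identity. The 10 genes that led the sustentacular-like cluster by fold began with *Scn7a* and *Col28a1* and held no marker used for its name. Another 457 cells with chromaffin and sustentacular markers together, called transitioning-like, were kept apart.

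The mitosis genes were highest in endothelial-like cells and lowest in sustentacular-like cells. Summed over the 20 genes they were at 1572 CPM (1540 to 1605) in endothelial-like, 995 CPM (936 to 1057) in macrophage-like, 657 CPM (647 to 667) in cortex-like and 377 CPM (365 to 390) in chromaffin-like cells. In sustentacular-like cells only 6 UMIs of the list were found in 208141, each from another gene, which is 28.8 CPM (10.6 to 62.7). The replication genes followed the same order, at 965 CPM (939 to 991), 691 CPM (641 to 742), 482 CPM (473 to 491), 268 CPM (258 to 279) and 135 CPM (89.4 to 194). No neighbours in either order had intervals that met. The G1 control genes did not follow it: they were at 1504 CPM (1472 to 1537) in endothelial-like and 1254 CPM (1106 to 1416) in sustentacular-like cells, above 776, 673 and 369 CPM in macrophage-like, chromaffin-like and cortex-like cells.

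Values of macrophage-like and sustentacular-like cells turn on which cells were counted. Of the 565 macrophage-like cells, 44 lay in a cluster of 97 cells that also showed cortex markers and of which Scrublet, a caller of droplets with more than 1 cell, marked 46.4%. With whole clusters taken in place of cells selected by their own markers, and mixed clusters left out, an alternative chosen after the data were seen, the mitosis list was at 195 CPM in macrophage-like and 168 CPM in sustentacular-like cells, and the replication list at 599 and 298 CPM. The sustentacular-like cluster then held 210 cells, 43 more than were kept, and those 43 carried markers of another lineage. Under a stricter filter, 1000 or more genes and no more than 10% mitochondrial UMIs, the mitosis list in macrophage-like cells was at 2234 CPM and the replication list at 1125 CPM, and no sustentacular-like cells were left.

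Since UMIs of few cells can carry a sum, cells were also counted. Each cell was thinned to 1000 UMIs and called mitosis-positive where at least 2 of the 20 mitosis genes had a UMI. By this measure 348 of 1841 endothelial-like cells were positive, 18.9% (17.1 to 20.8). The share was 8.72% (6.38 to 11.6) in macrophage-like cells, with 43 of 493, and 7.08% (6.27 to 7.96) in cortex-like cells, with 260 of 3672. The intervals of macrophage-like and cortex-like cells overlapped. In chromaffin-like cells it was 3.6% (2.85 to 4.47), 78 of 2169 cells. Of the 113 sustentacular-like cells none was positive, which allows a share of up to 2.65% by 3 cells and 3.21% by the exact interval. Thinning left out 276 endothelial-like, 72 macrophage-like, 17 cortex-like, 31 chromaffin-like and 54 sustentacular-like cells. Without thinning the shares were 23.9%, 9.91%, 13.4%, 6.64% and 0.599% in the same order, and cortex-like then stood above macrophage-like cells. With whole clusters the share was 1.12% in macrophage-like cells and 1.32% (0.161 to 4.70), 2 of 151 cells, in sustentacular-like cells. The absence of positive sustentacular-like cells thus turns on thinning and on the choice of cells by their own markers. The intervals of these sustentacular-like shares overlapped, so no change between settings was shown. With the stricter filter the share was 25.7% in macrophage-like cells, and no sustentacular-like cells were left.

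Replication-positive cells, called in the same way from the 18 replication genes, made up 20.2% (18.3 to 22.1) of endothelial-like, 11.8% (9.06 to 14.9) of macrophage-like, 8.25% (7.38 to 9.19) of cortex-like and 3.73% (2.98 to 4.62) of chromaffin-like cells, and none of the 113 sustentacular-like cells. Without thinning these shares were 42%, 23.0%, 40.0% and 18.9%, so cortex-like cells then stood above macrophage-like cells, and 0.599% in sustentacular-like cells. Among thinned mitosis-positive cells the share that were also replication-positive was 43.7% (38.4 to 49.1) in endothelial-like, 44.6% (38.5 to 50.9) in cortex-like, 37.2% (23.0 to 53.3) in macrophage-like and 32.1% (21.9 to 43.6) in chromaffin-like cells, and these intervals overlapped. From all UMIs it was 79.0%, 83.8%, 75% and 69.2%, so this share differs with the depth at which cells are read. Many cells lay near the limit of 2 genes. Of the mitosis-positive cells 19 of 78 in chromaffin-like, 73 of 260 in cortex-like, 70 of 348 in endothelial-like and 7 of 43 in macrophage-like cells had exactly 2 genes, and 94, 181, 173 and 22 cells had 1.

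**Figure D2:**
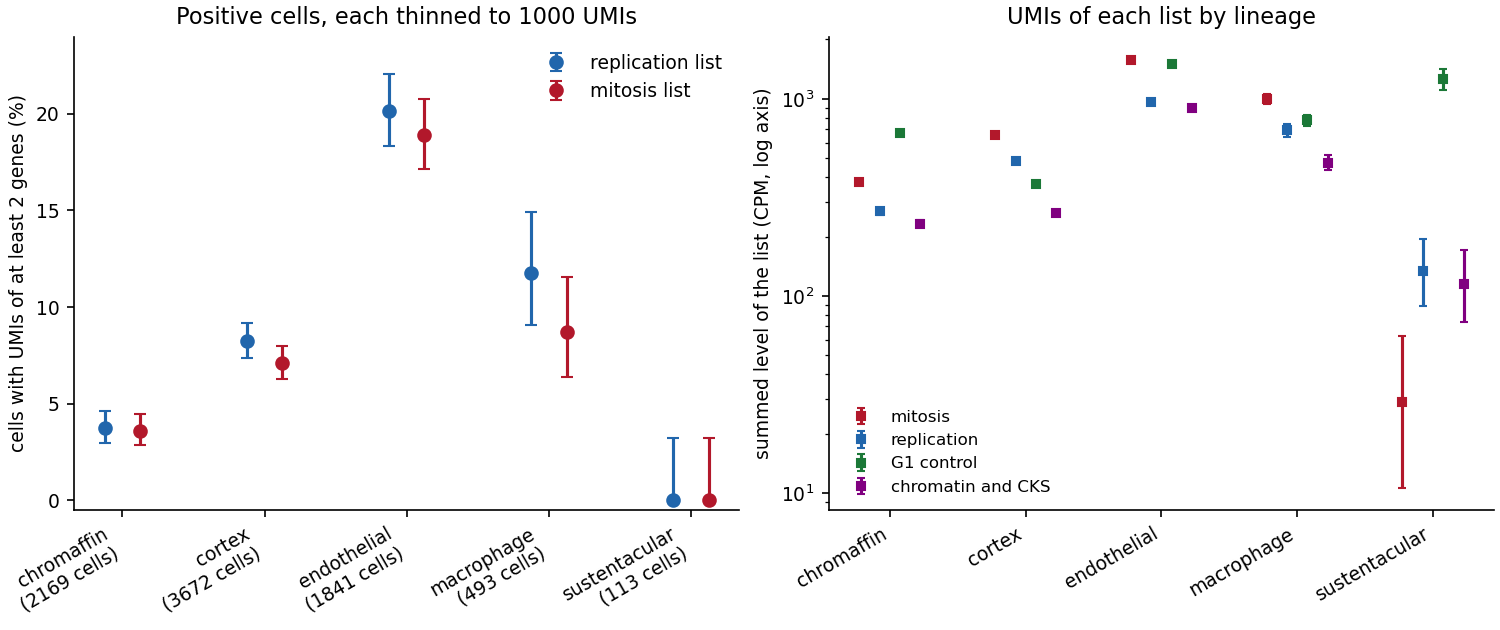
Left, share of cells (%, y axis) with UMIs of at least 2 replication (blue) or mitosis genes (red) in 5 lineages, each cell thinned to 1000 UMIs. Right, summed level of the 4 gene lists (CPM, log axis) in the same lineages. Bars are exact 95% intervals for counting error, and the endothelial-like share of 18.9% mitosis-positive cells stood above all other lineages while the sustentacular-like share was 0 with its G1 control list at 1254 CPM.

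The mitosis-positive cells were gathered in a few clusters. Of the endothelial-like cells 325 of the 348 positive ones lay in 1 cluster, in which 77.9% (73.6 to 81.8) were positive. In cortex-like cells it was 232 of 260 in a cluster with 70.7% positive, in chromaffin-like cells 68 of 78 in a cluster with 78.2%, and in macrophage-like cells 40 of 43 among the 41 cells from the mixed cluster. The chromaffin-like cluster is the one in which Scrublet called 50.9% of 169 cells, and 87 of the 169 were kept by their own markers. Among the mitosis-positive cells that were counted, Scrublet called 3.85% in chromaffin-like and 2.33% in macrophage-like cells. With the called cells removed, the mitosis-positive shares of these lineages were 3.51% and 8.62%. Although no member was among the variable features, cell cycle genes, members among them, led the endothelial-like, cortex-like and chromaffin-like clusters with most positive cells. The makeup of the clusters is therefore a description and no test. Elsewhere positive cells were few. The share was 0.111% (0.00282 to 0.618), 1 of 899 cells, in the cortex-like cluster led by *Cyp11b1*, the last enzyme of glucocorticoid synthesis, and 2.92% (1.71 to 4.63) in the cortex-like cluster led by *Ecrg4* and *Ly6d*. It was 0.268% and 0.718% in the chromaffin-like clusters led by *Pnmt* and *Slc6a4*. The *Cyp11b1* and *Pnmt* clusters had medians of 5454.5 and 2497 UMIs. Since dividing cells had been gathered in clusters of their own, these low shares are no measure of background.

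The ratio of replication to mitosis UMIs was 0.711 (0.676 to 0.748) in chromaffin-like, 0.733 (0.716 to 0.751) in cortex-like, 0.694 (0.631 to 0.763) in macrophage-like and 0.614 (0.593 to 0.635) in endothelial-like cells, whose interval lay below those of chromaffin-like and cortex-like cells. The macrophage-like ratio was 3.07 with whole clusters and 0.504 with the stricter filter. Within the clusters that held most positive cells it was 0.211 to 0.372, and in the other clusters of these 4 lineages with at least 20 cells it was 2.79 to 6.13. The clusters were parted here by the mitosis genes that are also the denominator, so this contrast follows from the choice and is no test. In sustentacular-like cells the ratio was 4.67 (1.90 to 13.8), from 28 replication and 6 mitosis UMIs. It rests on few UMIs and was 17 with lineages taken from each cell's own markers, 1.77 with whole clusters and 0.933 with *Hmgb2*, *Cks1b* and *Cks2* added to the mitosis list.

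Transitioning-like cells had the mitosis list at 125 CPM (112 to 139) and the replication list at 228 CPM (211 to 247), with a ratio of 1.83 (1.61 to 2.09). Of them 8 of 457 were mitosis-positive, 1.75% (0.759 to 3.42). Without thinning it was 39 of 457, 8.53% (6.14 to 11.5), beside 6.64% (5.63 to 7.76) in chromaffin-like cells, and these intervals overlapped. Transitioning-like cells were read deeper, with a median of 5274 UMIs against 3152 in chromaffin-like cells. Thinned, the share of 1.75% stood below the 3.6% (2.85 to 4.47) of chromaffin-like cells, again with overlapping intervals. Scrublet called 37.5% of these 8 cells as doublets against 4.01% of the other transitioning-like cells, and endothelial markers were at 679 CPM in them against 85.4 CPM. Unlike in the 5 lineages, no transitioning-like cell was left out for markers of another lineage. The part of doublets and of this choice of cells in this share was not tested.

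Over single genes, 39 of the 48 members had their highest level in endothelial-like cells, against 22.0% of the 13438 genes with at least 50 UMIs in the 5 lineages, a limit that all 48 members met. In sustentacular-like cells 39 members had their lowest level, against 27.6% of those genes, but 29 members had no UMI there, which at this depth allows up to 14.4 CPM by 3 UMIs. A gene was called higher or lower at 2 times the mean of the other 4 lineages, with 1 CPM added. A gene without a UMI in sustentacular-like cells entered that mean as 0. Calls of higher genes in the other lineages were not repeated with such genes at the limit of 3 UMIs. In endothelial-like cells 14 replication, 19 mitosis, 2 G1 control and 1 chromatin and CKS gene were called higher, 36 of 48, against a background of 12.2% of genes. The median fold was 2.45 for replication and 3.02 for mitosis genes, and 0.936 for all genes. These counts, and the ratios of single replication and mitosis genes below, were not repeated under the stricter filter. There the mitosis list was at 2234 CPM in macrophage-like and 1719 CPM in endothelial-like cells. The replication list was then at 1125 and 1011 CPM.

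Macrophage-like cells had 6 members called higher, *Gins2*, *Cdc6*, *Cdc45*, *Cdca7*, *Mki67* and *Aurkb*, against 9.21% of genes. All of these except *Mki67* had no UMI in sustentacular-like cells, so their calls rest in part on a level set to 0. *Gins2*, *Cdc6* and *Cdc45* rest on 26, 14 and 13 UMIs there. *Gins2*, *Cdca7*, *Mki67* and *Aurkb* were higher still in endothelial-like cells, at 26.0, 32.8, 182 and 20.3 CPM against 24.5, 27.4, 147 and 17.9 CPM. Of these ratios only that of *Mki67*, 1.23 (1.04 to 1.47), had an interval without 1. In cortex-like cells no member was called higher (background 12.1%) and 5 were called lower, 4 of them G1 control genes (26.1%). In chromaffin-like cells 28 members were called lower (22.1%), namely 11 replication, 15 mitosis and 2 G1 control genes, and only *Ccne1* was called higher (16.6%). In sustentacular-like cells only *Cdkn1a* was called higher (11.9%). There 40 members were called lower (34.8%), many of them from a count of 0. With genes that had no UMI set at the limit of 3 UMIs, a choice made after the data were seen, 20 members were called lower, 11 mitosis, 6 replication and 3 chromatin and CKS genes, against 14.3% of genes.

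**Figure D3:**
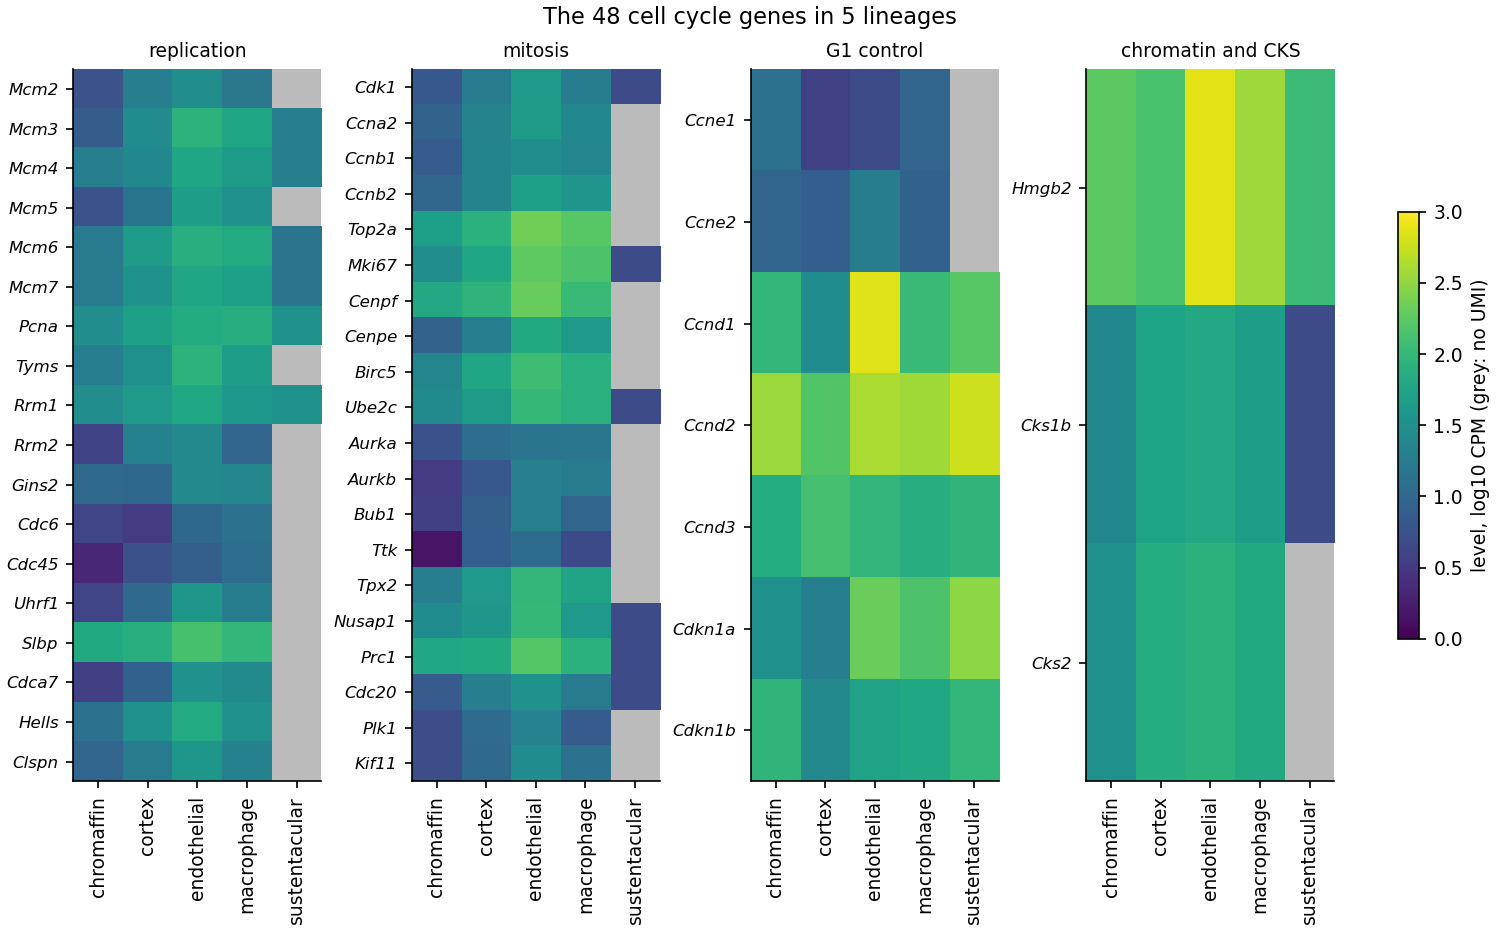
Level of each of the 48 members (rows, by list) in the 5 lineages (columns), as log10 CPM, with grey where no UMI was found. Endothelial-like columns were brightest for 15 of 18 replication and 19 of 20 mitosis genes, and sustentacular-like columns were grey for 12 and 14 of them.

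Among replication genes, *Slbp*, which binds the end of histone mRNAs, had most UMIs, 3392 in the 5 lineages. It was at 134.9 CPM (125 to 145) in endothelial-like, 98.1 CPM in macrophage-like, 78.4 CPM (74.9 to 82.0) in cortex-like and 65.9 CPM (60.9 to 71.2) in chromaffin-like cells, and had no UMI in sustentacular-like cells. *Pcna*, the sliding clamp of DNA polymerases, was at 73.6 CPM (58.2 to 91.8) in macrophage-like, 69.9 CPM (63.2 to 77.2) in endothelial-like, 51.3 CPM (48.5 to 54.2) in cortex-like, 33.6 CPM (13.5 to 69.3) in sustentacular-like and 29.5 CPM (26.2 to 33.1) in chromaffin-like cells. Its endothelial-like and macrophage-like levels could not be told apart, and neither could its sustentacular-like and chromaffin-like levels.

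*Mcm6* was at 77.4, 68.9, 46.0, 16.8 and 14.4 CPM in endothelial-like, macrophage-like, cortex-like, chromaffin-like and sustentacular-like cells, the last from 3 UMIs. *Rrm1* was at 62.6 CPM in endothelial-like cells and between 29.6 and 40.9 CPM in the other 4 lineages. *Tyms*, thymidylate synthase, was at 87.4 CPM (79.8 to 95.5) in endothelial-like and 48.1, 32.5, 19.1 and 0 CPM in macrophage-like, cortex-like, chromaffin-like and sustentacular-like cells, 1.82 times (1.36 to 2.47) higher than in the next lineage. 2 replication genes, both readers or remodellers of chromatin, had a highest lineage at least 2 times the next. *Uhrf1*, which guides maintenance of DNA methylation, was at 39.1 CPM in endothelial-like and 18.9 CPM in macrophage-like cells, a ratio of 2.07 (1.31 to 3.46), and at 10.6 and 4.24 CPM in cortex-like and chromaffin-like cells. *Hells* was at 69.0 CPM in endothelial-like, 34.5 CPM in cortex-like, 33.0 CPM in macrophage-like and 13.7 CPM in chromaffin-like cells, a ratio of 2.0 (1.77 to 2.26) to the next. The other 11 replication genes had levels of 2.17 to 87.2 CPM in these 4 lineages.

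Among mitosis genes, *Cenpf*, a kinetochore protein, was at 202 CPM (191 to 214) in endothelial-like, 105 CPM (86.1 to 126) in macrophage-like, 90.1 CPM (86.4 to 94.0) in cortex-like and 64.7 CPM (59.7 to 69.9) in chromaffin-like cells. *Top2a* was at 227 CPM (214 to 239), 165 CPM (142 to 191), 82.3 CPM (78.7 to 86.0) and 48.7 CPM (44.4 to 53.3) in the same order, and neither gene had a UMI in sustentacular-like cells. The order of the 4 lineages was the same for both, but *Cenpf* in macrophage-like cells was close to cortex-like cells while *Top2a* was about midway to endothelial-like cells. *Mki67*, the proliferation marker Ki-67, resembled *Top2a*, with 182, 147, 58.2 and 29.3 CPM, and 1 UMI in sustentacular-like cells. *Prc1*, which bundles microtubules of the central spindle, was at 164 CPM in endothelial-like and 83, 66.7 and 62.0 CPM in macrophage-like, cortex-like and chromaffin-like cells. *Birc5*, survivin of the chromosomal passenger complex, was at 117, 81.1, 59.0 and 23.6 CPM.

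4 mitosis genes were at least 2 times higher in endothelial-like than in the next lineage, macrophage-like in each case. Their ratios were not read under the stricter filter, in which the summed list was higher in macrophage-like cells. *Nusap1*, a spindle protein, was at 100.8 CPM against 42.5 CPM, a ratio of 2.37 (1.75 to 3.29). *Cdk1* was at 42.1 against 18.9 CPM (2.23, 1.41 to 3.72), *Bub1*, a kinase of the spindle checkpoint, at 20.5 against 9.43 CPM (2.17, 1.14 to 4.66), and *Kif11*, the spindle motor Eg5, at 28.5 against 13.2 CPM (2.16, 1.25 to 4.04). For 1 mitosis gene, *Aurka*, macrophage-like cells were highest, at 15.1 against 14.6 CPM, and the ratio of 1.03 (0.564 to 1.78) holds 1. The other 10 mitosis genes were at 1.45 to 98.5 CPM in these 4 lineages and at 0 or 1 UMI in sustentacular-like cells.

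The G1 control genes each had a pattern of their own. *Ccnd1*, cyclin D1, was at 709 CPM (687 to 732) in endothelial-like cells, 4.22 times (3.03 to 6.06) the 168 CPM (117 to 234) of sustentacular-like cells. It was at 105, 97.9 and 29.1 CPM in macrophage-like, chromaffin-like and cortex-like cells, and a UMI was found in 44.6% of thinned endothelial-like and 2.42% of thinned cortex-like cells. *Ccnd2*, cyclin D2, was highest in sustentacular-like cells, at 591 CPM (491 to 705), 1.43 times (1.18 to 1.71) the 414 CPM (397 to 431) of endothelial-like cells. It was at 372, 356 and 153 CPM in macrophage-like, chromaffin-like and cortex-like cells, of which the first 2 had overlapping intervals, and at 495 CPM (470 to 522) in transitioning-like cells. *Ccnd3*, cyclin D3, was highest in cortex-like cells, at 130 CPM (125 to 134), where the other D cyclins were lowest, and at 71.8 to 94.4 CPM elsewhere.

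*Cdkn1a*, which encodes p21, was highest in sustentacular-like cells, with 307 CPM (237 to 393), 1.47 times (1.13 to 1.89) the 209 CPM (197 to 221) of endothelial-like cells, and was at 145, 31.7 and 19.7 CPM in macrophage-like, chromaffin-like and cortex-like cells. At 1000 UMIs per cell it was found in 21.2% (14.1 to 29.9) of sustentacular-like and 16.1% (14.4 to 17.8) of endothelial-like cells, where the intervals overlap. *Cdkn1b*, which encodes p27, had similar levels of 96.1 CPM (58.7 to 148) in sustentacular-like and 92.9 CPM (86.9 to 99.2) in chromaffin-like cells, which could not be told apart, and at 63.2, 54.2 and 25.5 CPM in macrophage-like, endothelial-like and cortex-like cells. With whole clusters the order of the first 2 turned.

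The E cyclins were rare. *Ccne1* was at 13.3 CPM (11.1 to 15.9) in chromaffin-like, 9.43 CPM (4.52 to 17.4) in macrophage-like, 5.00 CPM (3.32 to 7.22) in endothelial-like and 3.81 CPM (3.07 to 4.67) in cortex-like cells. *Ccne2*, cyclin E2, was at 18.9 CPM (15.5 to 22.9) in endothelial-like and 7.86 to 9.52 CPM in cortex-like, macrophage-like and chromaffin-like cells. Neither had a UMI in sustentacular-like cells. *Ccne1* was the only member called higher in chromaffin-like cells, but its ratio to macrophage-like cells, 1.41 (0.745 to 3.02), holds 1 and was 0.636 with the stricter filter. The call also rests on its count of 0 in sustentacular-like cells. That count allows up to 14.4 CPM by 3 UMIs, which is above its chromaffin-like level, and the call was not repeated at this limit.

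*Hmgb2*, a DNA-bending chromatin protein, was at 744 CPM (722 to 767) in endothelial-like cells, 2.06 times (1.85 to 2.29) the 361 CPM (326 to 399) of macrophage-like cells, and at 176, 136 and 110.5 CPM in chromaffin-like, cortex-like and sustentacular-like cells. With the stricter filter the endothelial-like to macrophage-like ratio was 0.923. At 1000 UMIs per cell it was found in 36.0% (33.8 to 38.2) of endothelial-like and 11.5% (6.27 to 18.9) of sustentacular-like cells. *Cks1b* and *Cks2* were at 63.9 and 84.7 CPM in endothelial-like, 54.4 and 72.7 CPM in cortex-like, 46.2 and 67.0 CPM in macrophage-like, 25.1 and 32.0 CPM in chromaffin-like cells, with 1 UMI of *Cks1b* and none of *Cks2* in sustentacular-like cells.

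The members that did not choose the mitosis-positive cells were compared between these and the other cells of the same lineage with at least 1000 UMIs. A gene was called higher at 2 times, with 1 CPM added, where both sets together held at least 50 of its UMIs. Of the replication genes 13 of the 13 that reached this limit were called higher in chromaffin-like cells (background 6.02% of 10096 genes), 17 of 18 in cortex-like (5.61% of 11001), 8 of 17 in endothelial-like (3.03% of 8294) and 1 of 5 in macrophage-like cells (4.43% of 2754). The limit can be reached through the positive cells alone, so these counts are a description. Median folds were 5.08, 4.24, 1.83 and 1.76, beside 0.976 to 1.02 for all genes. The positive cells had more UMIs, with medians of 5125 against 3142 in chromaffin-like, 7852 against 5149 in cortex-like, 3152 against 2117 in endothelial-like and 3002 against 1676 in macrophage-like cells. The part of depth in these folds was not tested.

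The replication genes moved to unequal degrees. The 6 *Mcm* genes of the helicase were 2.12 to 4.94 times higher in mitosis-positive than other cortex-like cells, 3.24 to 10.1 times in chromaffin-like and 1.25 to 2.51 times in endothelial-like cells. *Rrm2*, the regulated small subunit of ribonucleotide reductase, was at 164 against 5.99 CPM in cortex-like cells, a ratio of 27.4 (22.4 to 33.7). In endothelial-like cells it was at 80.8 against 9.58 CPM (8.44, 5.79 to 12.5). *Clspn*, a mediator of the replication checkpoint, was at 127 against 6.49 CPM in cortex-like (19.6, 16.0 to 24.1) and 124 against 3.6 CPM in chromaffin-like cells (34.6, 22.2 to 54.7). *Tyms* was 11.4 times (9.84 to 13.1) higher in cortex-like, 12.0 times (8.77 to 16.3) in chromaffin-like and 3.20 times (2.66 to 3.85) in endothelial-like cells. *Cdca7*, a partner of *Hells*, moved least, at 1.73 times (1.14 to 2.55) in cortex-like and 1.18 times (0.832 to 1.65) in endothelial-like cells. *Rrm2*, *Clspn* and *Cdca7* are singled out here after their values were seen.

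**Figure D4:**
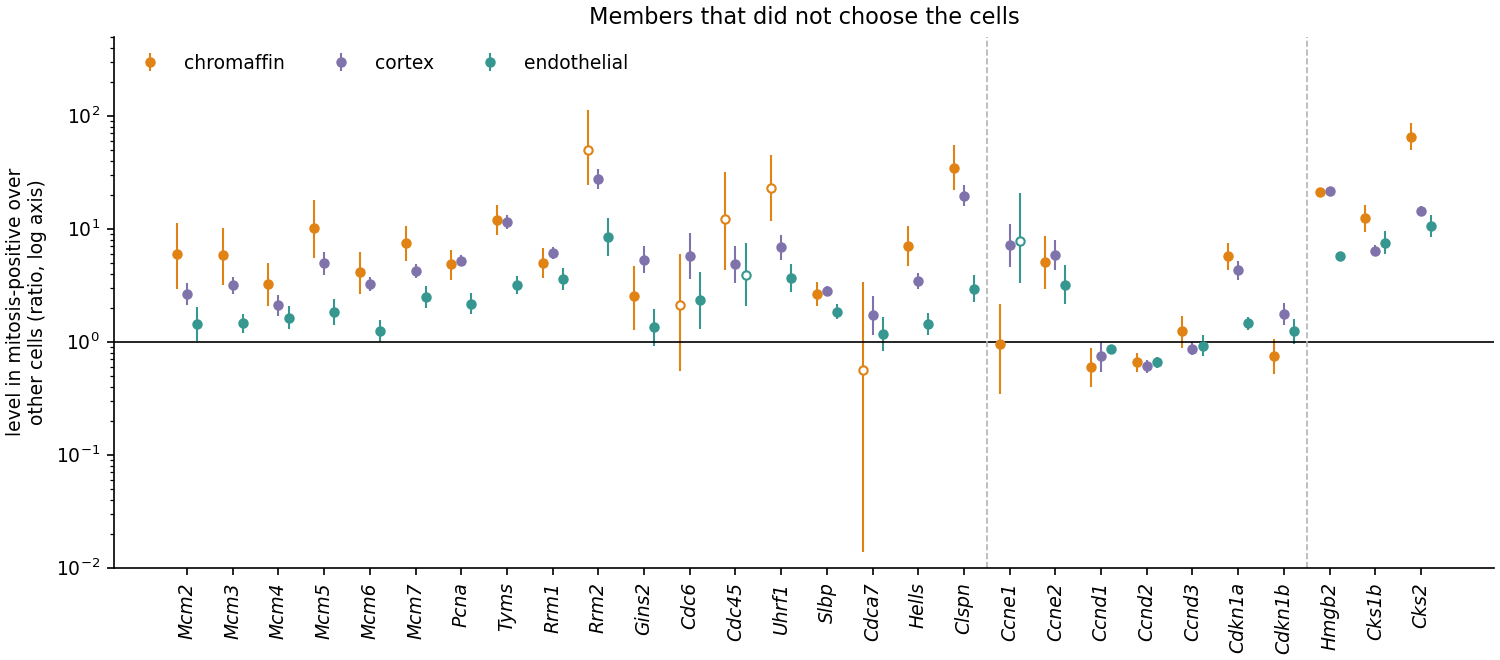
Ratio of the level in mitosis-positive to that in other cells of the same lineage (log axis) for the 28 members that did not choose the cells, in chromaffin-like (orange), cortex-like (purple) and endothelial-like cells (green). Bars are exact 95% intervals, open points had under 50 UMIs, and dashed lines part replication, G1 control, and chromatin and CKS genes. *Ccnd2* lay below 1 in all 3 lineages and *Cks2* at 10.6 to 65.4.

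The 3 chromatin and CKS genes were called higher in mitosis-positive cells of chromaffin-like, cortex-like and endothelial-like cells. *Cks2* was at 506 against 7.74 CPM in chromaffin-like cells, a ratio of 65.4 (50.0 to 86.5), at 463 against 32.3 CPM in cortex-like cells (14.3, 13.0 to 15.8) and at 276 against 26.0 CPM in endothelial-like cells (10.6, 8.52 to 13.3). *Hmgb2* was at 1879 against 89.4 CPM, 999 against 46.4 CPM and 2040 against 354 CPM, and *Cks1b* was 12.4, 6.40 and 7.49 times higher. *Hmgb2* was thus higher in endothelial-like cells that were not mitosis-positive than in such cells of the other lineages named.

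G1 control genes moved in both directions. *Cdkn1a* was at 148 against 25.8 CPM in chromaffin-like cells (5.73, 4.32 to 7.52), at 64.5 against 15.0 CPM in cortex-like cells (4.29, 3.50 to 5.23) and at 273 against 187 CPM in endothelial-like cells (1.45, 1.28 to 1.65). In macrophage-like cells it was at 126 against 144 CPM, and the ratio of 0.874 (0.501 to 1.44) holds 1. *Ccnd2* was lower in mitosis-positive cells, with ratios of 0.658 (0.539 to 0.795), 0.606 (0.526 to 0.695), 0.656 (0.586 to 0.733) and 0.713 (0.50 to 0.991) in chromaffin-like, cortex-like, endothelial-like and macrophage-like cells. None of these passed the 2-fold limit. *Ccnd1* was at 0.601 (0.397 to 0.875), 0.741 (0.544 to 0.989) and 0.870 (0.805 to 0.94) in the first 3 lineages, and *Ccnd3* at 0.866 (0.760 to 0.984) in cortex-like cells. *Cdkn1b* was at 1.76 (1.40 to 2.20) in cortex-like cells, with intervals that hold 1 in the other lineages.

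To set these genes beside both lists, the cells were divided into states after the data were seen. They were positive for neither list, for replication only, for both or for mitosis only, each cell thinned to 1000 UMIs. These states turn on depth. From all UMIs, 415 cortex-like cells were positive for both and 80 for mitosis only, against 116 and 144 thinned. Median UMIs also differed, with 5130 in cortex-like cells with neither and 8022.5 with both. The part of depth in the levels by state was not tested. *Ccne2* was at 2.05 CPM (1.48 to 2.77) in cortex-like cells with neither, 54.3 CPM (42.7 to 67.9) with replication only, 57.6 CPM (43.9 to 74.3) with both and 10.5 CPM (5.58 to 17.9) with mitosis only. In endothelial-like cells it was at 6.98, 44.4, 69.2 and 20.9 CPM and in chromaffin-like cells at 6.32, 55.5, 68.8 and 28.1 CPM. It was thus highest in cells that showed replication genes, with or without mitosis genes, although in chromaffin-like cells the intervals of the last 3 states overlapped. In endothelial-like cells the intervals with replication only (29.5 to 64.2) and mitosis only (12.0 to 34.0) overlapped as well. *Ccne1* was at 1.37 CPM (0.908 to 1.98), 17.8 CPM (11.5 to 26.3), 32.2 CPM (22.2 to 45.3) and 4.84 CPM (1.77 to 10.5) in cortex-like cells. In chromaffin-like cells with neither list it was at 13.4 CPM (11.1 to 16.1), against 13.1 CPM (3.56 to 33.5) with replication only, 27.5 CPM (7.49 to 70.4) with both and 6.23 CPM (0.755 to 22.5) with mitosis only. The last 3 values rest on 4, 4 and 2 UMIs, and all these intervals overlapped. Cells with neither list were 2035 of the 2169 chromaffin-like cells, so their level must lie near that of the whole lineage.

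*Cdkn1b* in endothelial-like cells was at 55.5 CPM (47.9 to 64.0) with neither, 31.7 CPM (19.4 to 49.0) with replication only, 44.9 CPM (28.7 to 66.7) with both and 77.2 CPM (58.8 to 99.6) with mitosis only. The first 3 intervals overlapped. The interval with mitosis only also overlapped those with neither and with both, and lay above only that with replication only. In cortex-like cells the levels were 24.1 CPM (22.0 to 26.3), 20 CPM (13.3 to 28.9), 37.1 CPM (26.3 to 50.9) and 45.9 CPM (34.8 to 59.5). In chromaffin-like cells they were 94.3 CPM (88.0 to 100.9), 81.7 CPM (52.9 to 120.6), 82.5 CPM (42.6 to 144.1) and 65.5 CPM (40.5 to 100.1). These intervals all overlapped, so no order of the states was shown in chromaffin-like cells. In cortex-like cells *Cdkn1a* was at 14.5 CPM (12.9 to 16.3) with neither list and 22.1 CPM (15.0 to 31.4) with replication only, which overlap, and at 77.2 CPM (61.1 to 96.2) with both. *Ccnd2* was at 234 CPM (209 to 261) in cortex-like cells with replication only, against 154 CPM (148 to 159) with neither, 82.0 CPM (65.4 to 101.6) with both and 108 CPM (90.5 to 128) with mitosis only. The higher level with replication only was not seen in endothelial-like cells, at 422 CPM (373 to 476) against 456 CPM (434 to 479) with neither, or in chromaffin-like cells, at 379 CPM (313 to 455) against 361 CPM (349 to 374), where the intervals overlapped. With both it was at 278 and 179 CPM. *Cks2* was higher with both lists than with replication only, going from 49.3 CPM (38.3 to 62.3) to 422 CPM (383 to 464) in cortex-like cells and from 41.2 CPM (26.9 to 60.4) to 275 CPM (232 to 323) in endothelial-like cells.

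**Figure D5:**
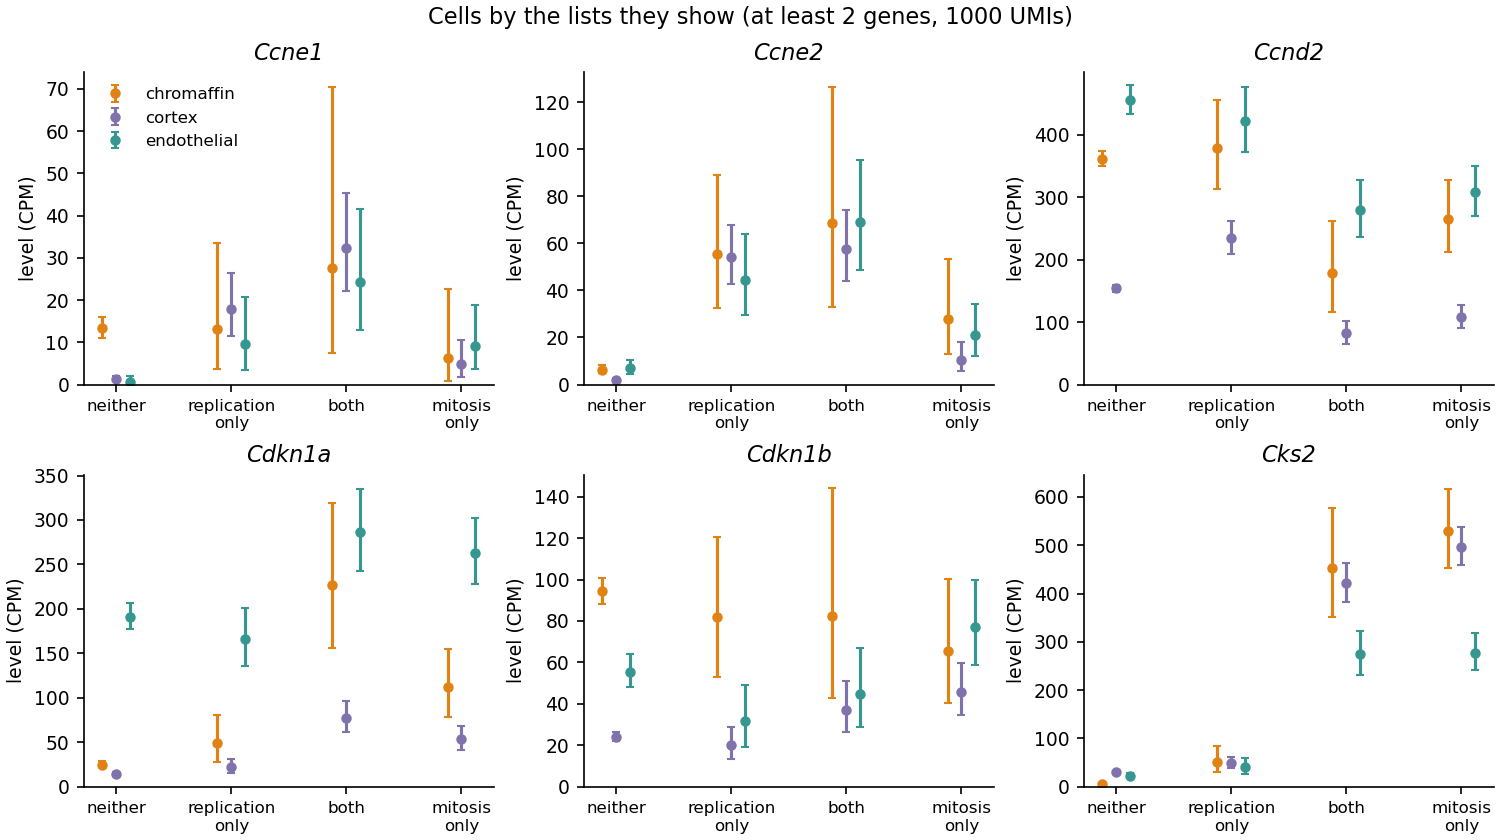
Level (CPM, y axis) of 6 members in cells positive for neither list, for replication only, for both or for mitosis only (x axis), in chromaffin-like (orange), cortex-like (purple) and endothelial-like cells (green), with exact 95% intervals. *Ccne2* was highest in the states with replication genes, and *Cks2* in the states with mitosis genes.

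Among 32 other genes of the cell cycle that are not members, 16 were called higher in endothelial-like cells, 4 in macrophage-like and 1 each in chromaffin-like, cortex-like and sustentacular-like cells, by the 2-fold rule and beside the same backgrounds. In mitosis-positive cells 18 of the 22 tested were called higher in chromaffin-like (background 6.02%) and 25 of 30 in cortex-like cells (5.61%). The counts were 20 of 28 in endothelial-like (3.03%) and 1 of 3 in macrophage-like cells (4.43%). Here too a gene can reach the limit on UMIs for testing through the positive cells alone, so these counts are a description. The 1 gene called higher in cortex-like cells was *Cdkn1c*, which encodes the inhibitor p57, at 623 CPM there and 38.9 CPM in endothelial-like cells, a ratio of 16.0 (14.0 to 18.4). It held 55.7% of the UMIs of this list in cortex-like cells and is named after its value was seen.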

How the data were processed

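The deposited matrix holds UMI counts per gene and barcode of 1 library, with no normalization. The submitters' processing notes name Cell Ranger 4.0.0 and mm10, from which the authors obtained the counts. Cells with 500 to 5000 genes and at most 20% mitochondrial UMIs were clustered in Seurat 5.3.0 (R 4.3.3), with 2000 variable features from which the 48 members were left out, 10 principal components and a Louvain resolution of 0.4, and genes in at least 3 cells. A cluster was named where at least 3 markers of a lineage were each in at least 50% of its cells (25% for sustentacular). In the 5 lineages, a cell was left out where markers of another lineage reached 20% of that lineage's median level. Cells of 3 mixed clusters were placed by their own markers. The transitioning-like and fibroblast-like clusters were kept whole, without the rule on markers of another lineage. These percentages, the rule on single cells and the division into 4 cell states were set after clusters and values were seen, and the members and gene lists were chosen with earlier results of these data known.

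Doublets were not removed. Scrublet (scanpy 1.11.5, 8% expected) marked 669 of 10139 cells, and their removal was an alternative. Levels, shares and ratios carry exact Poisson, Clopper-Pearson and conditional 95% intervals (scipy 1.17.1), which cover counting error only. A count of 0 was given the limit of 3 counts. With 1 library no test between samples was made. Named genes were the 5 replication and the 5 mitosis members with most UMIs, all G1 control and chromatin and CKS members, members whose highest lineage was at least 2 times the next of those with 10 or more UMIs, and others where the text says so. Alternatives were the resolution, cell filters, doublet removal, lineages from each cell's own markers, variable features with members, thinning, the number of genes for a positive cell, list makeup, means over cells and the promoter window. Scripts were tested on simulated data.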

Additional observations from a re-analysis of the deposited data

Results flagged for a closer look

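Mitosis-positive cells were also found in cells that belong to none of the 5 lineages compared. The limits given beside their shares are what a count of 0 would allow, and they are no background level. In a fibroblast-like cluster, in which *Mgp* and *Dcn* were among the leading genes, 6 of 69 cells were positive, 8.70% (3.26 to 18). The limit there was 4.35%, which lies within this interval. These 6 cells had a median of 9970.5 UMIs, against 2300 in the other cells of the cluster, with endothelial markers at 4790 against 3511 CPM and cortex markers at 2794 against 1620 CPM, and their part in the share was not tested. In an unnamed cluster of 59 cells led by *Ccl5*, *Gzma* and *Nkg7*, 17 of 49 cells with at least 1000 UMIs were positive, 34.7% (21.7 to 49.6), against a limit of 6.12%. That cluster had a median of 1352 UMIs, and Scrublet marked none of its cells. In neither cluster were cells left out for markers of another lineage.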

How the results depend on the processing

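Shares are in percent and levels in CPM, in the order chromaffin-like, cortex-like, endothelial-like, macrophage-like and sustentacular-like, and only values that moved beyond their main intervals are given. Without thinning the mitosis-positive shares of the first 3 lineages were 6.64, 13.4 and 23.9. Thinned to 2000 UMIs the first 4 were 5.16, 9.12, 30.6 and 21.5. With at least 3 genes the first 3 were 2.72, 5.09 and 15.1. With *Hmgb2*, *Cks1b* and *Cks2* added the first 3 shares were 4.66, 8.61 and 24.5, and the 5 replication to mitosis ratios were 0.44, 0.524, 0.391, 0.470 and 0.933.

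Under the stricter filter, cortex-like, endothelial-like and macrophage-like cells had shares of 8.79, 22.9 and 25.7, ratios of 0.656, 0.588 and 0.504 and replication levels of 524, 1011 and 1125, and the first 4 lineages had mitosis levels of 402, 799.6, 1719 and 2234. No sustentacular-like cells were left, so no value could be given. Whole clusters, an alternative chosen after the data were seen, gave a macrophage-like share of 1.12, ratios of 0.706, 3.07 and 1.77 in cortex-like, macrophage-like and sustentacular-like cells, and, without endothelial-like cells, mitosis levels of 413, 704, 195 and 168 and replication levels of 289, 497, 599 and 298. Each cell's own markers gave ratios of 0.810, 0.754 and 17 and mitosis levels of 341, 642.5 and 8.32 in chromaffin-like, cortex-like and sustentacular-like cells. Without the gene with most UMIs in each list the first 2 ratios were 0.648 and 0.712. With no upper limit on genes the cortex-like ratio was 0.714, the first 2 mitosis levels were 394 and 691.5, and the first 2 replication levels were 281 and 493.5. As means over cells the first 4 mitosis levels were 282, 495, 1268 and 605.5, and the replication levels 237, 424, 874 and 576. Without the cells marked by Scrublet the cortex-like mitosis level was 678, and with members among the variable features the endothelial-like level was 1637. With the bases after the start, 13 mitosis promoters held CHR letters. With genes without a UMI set at the limit of 3 UMIs, also chosen after the data were seen, 20 members were called lower in sustentacular-like cells.

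Among ratios of the highest to the next lineage, *Ccne1* (0.636) and *Hmgb2* (0.923) turned under the stricter filter and *Cdkn1b* (0.95) with whole clusters. The cause of these changes was not tested. Endothelial-like cells had the highest share in every setting except the stricter filter, in which macrophage-like cells were above them. No paired analysis was possible because the series has 1 library. Depth limits sustentacular-like cells most.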
